A study of Schizosaccharomyces pombe with 4 samples.

Results

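The cytoplasmic ribosomal protein genes of *Schizosaccharomyces pombe* are described here: the 131 protein-coding genes of the deposited table whose names begin with *rpl* or *rps* and a digit, out of 5129 protein-coding genes. Of these, 76 are named for the large (60S) and 55 for the small (40S) ribosomal subunit, and a RefSeq entry matched each of them, 130 with a product named as a ribosomal protein (*rpl44* is the other). They lie on chromosomes I (58), II (48) and III (25). Total RNA was sequenced from cells lacking *rrp6* (*rrp6*Δ) and from the wild-type strain (WT), with 2 libraries per strain that the labels call biological replicates. The labels name no other allele and no treatment. ERCC spike-in RNA was added to the RNA, rRNA was depleted, and strand-specific libraries were sequenced from both ends.

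The ribosome is built from rRNA and many proteins, most of them present once per ribosome, and growing yeast cells spend a large part of their mRNA on these proteins. Many ribosomal protein genes of *S. pombe* exist in duplicate or triplicate, so that copies of one protein have separate promoters and separate introns. Rrp6, a nuclear exonuclease, joins the exosome to degrade non-coding RNAs and unused precursors and to trim stable RNAs. The pre-mRNA of *rpl3002*, which encodes eL30, is known from earlier work in *S. pombe* as a substrate of the poly(A)-binding protein Pab2 and Rrp6.

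The *rrp6* transcript had 7.38 and 8 normalized read counts in *rrp6*Δ libraries 1 and 2, against 2352 and 2842 in WT libraries 1 and 2. The normalized read count is the number of reads on a transcript multiplied by 1 factor per library. Protein-coding genes received 43759334 and 37893454 reads in *rrp6*Δ, and 40728120 and 52313091 in WT. The 131 genes took 20.3% and 19.6% of these reads in *rrp6*Δ, against 19.97% and 20.9% in WT, so that the ranges overlap. Each of the 131 had at least 2509 reads in every library. Because RNA of whole cultures was sequenced, a change in the number of cells that hold a transcript and a change per cell cannot be told apart.

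Sequences are shown first for the copies of eL30 and uL1, since *rpl3002* and *rpl102* rose most among the 131 genes and the other copy of each protein did not pass the test. Their introns, with the position in the deposited table and the bases from RefSeq (ASM294v3), are given 5′ to 3′ on the coding strand. Capitals mark the opening bases when these are GTAAGT, the letters TTAAAC (the core of the RNA motif bound by Mmi1, which marks meiotic transcripts for decay), the letters CTAAC of a branch point, and the last 3 bases. The search for TTAAAC was chosen after the values of *rpl3002* were seen.
rpl3002 intron, chrI:5095302-5095547, minus strand: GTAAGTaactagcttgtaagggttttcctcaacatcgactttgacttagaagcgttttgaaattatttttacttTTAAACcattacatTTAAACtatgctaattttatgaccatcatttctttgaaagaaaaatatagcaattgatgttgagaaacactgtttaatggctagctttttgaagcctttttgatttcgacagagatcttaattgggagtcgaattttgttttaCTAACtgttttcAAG
rpl3001 intron, chrI:1973757-1973815, minus strand: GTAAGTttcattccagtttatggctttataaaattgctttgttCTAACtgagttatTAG
rpl102 intron, chrII:3060958-3061218, plus strand: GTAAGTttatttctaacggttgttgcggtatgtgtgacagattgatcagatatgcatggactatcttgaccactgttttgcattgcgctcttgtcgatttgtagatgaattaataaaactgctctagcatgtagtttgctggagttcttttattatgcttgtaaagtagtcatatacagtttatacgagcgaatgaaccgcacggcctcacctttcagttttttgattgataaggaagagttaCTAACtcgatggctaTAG

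The intron of *rpl3002* is 246 nt long and that of *rpl3001* 59 nt. The intron of *rpl102* is 261 nt long, and *rpl101* has none. TTAAAC, searched on the coding strand, stands in 6 of the 76 introns of ribosomal protein genes (7.89%) and in 259 of 5016 introns of all protein-coding genes (5.16%). The *rpl3002* intron is the only one of the 76 that holds it more than once, which 8 introns of all genes do. A match of letters is a description and does not show that a protein binds there.

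Levels of the 131 genes spanned a wide range. Density, the normalized read count divided by the length of the entry in nt, had a median of 71.6 over the members, against 1.04 over the 5073 protein-coding genes tested. Of the 300 genes with the highest density, 126 were ribosomal protein genes. By the mean over the 4 libraries, the densest gene of the large subunit was *rpl8* (eL8), at 183 in *rrp6*Δ and 184 in WT, and the densest of the small subunit was *rps7* (eS7), at 167 in *rrp6*Δ and 155 in WT. The least dense were *rpl1603* (uL13), at 0.914 in *rrp6*Δ and 1.24 in WT, and *rps2202* (uS8), at 11.4 in *rrp6*Δ and 15.2 in WT. The entry of *rpl1603* is 2726 nt long for a coding length of 594 nt, which lowers its density.

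Differences between the strains were tested with limma on log2 values, with p-values adjusted over 11227 transcripts. With an adjusted p under 0.05 and a change of more than 2-fold, 1 of the 131 genes rose (*rpl3002*), while 6.39% of all protein-coding genes did. None of the 131 fell, against 0.591% of all (36 of the 131 passed an adjusted p under 0.05, and 39 an unadjusted p under 0.05, in either direction). DESeq2 and edgeR with the deposited factors also called 0 lower. By adjusted p alone, 10 of the 131 genes were higher (background 46.7%), 26 were lower (background 7.08%) and 95 did not pass. Both *rrp6*Δ libraries lay above both WT libraries for 28 of the 131 genes (background 65.3%) and below both for 47 (background 12%), and the strains overlapped for 56.

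The 131 genes had a median log2 fold change of −0.06, and all protein-coding genes one of 0.26. Over the 4 pairings of an *rrp6*Δ with a WT library, which share libraries, the SD of these medians was 0.11 and 0.10. Of the 131 values, 127 lay within 0.5 of 0 on the log2 scale. The median was −0.06 for the large and −0.03 for the small subunit. The difference in median log2 fold change, ribosomal protein genes minus all protein-coding genes, was −0.31 with the deposited factors. A scaling by 1 factor per library cannot move this difference by much. Quantile normalization, which can, turned it to 0.06. The sign of the members' own median depends on 1 library, and it is 0.05 without WT library 2. The other 174 of the 300 densest genes had a median of −0.03, with 48 higher and 59 lower by adjusted p alone. Across all 5073 genes, log2 density and log2 fold change correlated at −0.40, and across the 131 genes at 0.02 (Spearman 0.22), or at 0.38 without *rpl3002* and *rpl102*. The part of level in the position of the ribosomal protein genes was not tested.

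**Figure D1:**
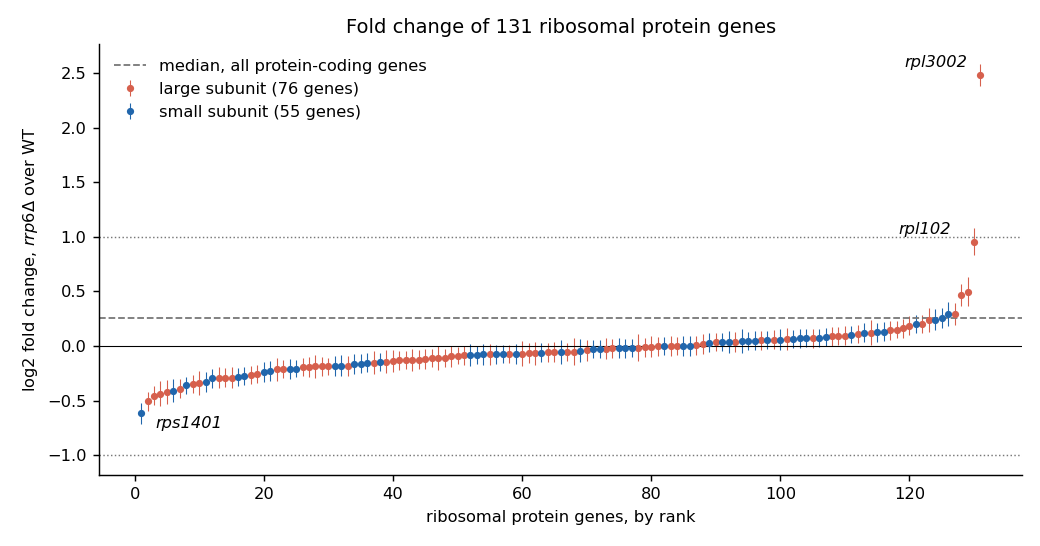
Log2 fold change of *rrp6*Δ over WT for the 131 ribosomal protein genes (vertical axis), ranked from lowest to highest (horizontal axis), with bars for the standard error and colours for the subunit. The dashed line is the median of all protein-coding genes (0.26), dotted lines are 2-fold, and *rpl3002* (2.49) is the one gene beyond them.

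The copies of eL30 differed most. *rpl3002* had 19024 and 19271 normalized read counts in *rrp6*Δ libraries 1 and 2, against 3195 and 3650 in WT libraries 1 and 2. Both *rrp6*Δ libraries lay far above both WT libraries, and limma gave 2.49 on the log2 scale (SE 0.10, adjusted p = 7.57e-12). *rpl3001* had 47274 and 49205 in *rrp6*Δ, against 44371 and 52787 in WT, and the strains overlapped (limma −0.00, SE 0.09, adjusted p = 0.966). *rpl3002* made up 28.7% and 28.1% of the reads of both copies in *rrp6*Δ, against 6.72% and 6.47% in WT. The coding sequences of these copies are 66.1% identical and share no stretch of 50 bases.

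*rpl102*, which encodes uL1 of the stalk that guides tRNA out of the ribosome, was the second highest. It had 22249 and 23590 normalized read counts in *rrp6*Δ, against 10039 and 13891 in WT. The strains did not overlap, the WT libraries lay apart from each other, and limma gave 0.96 on the log2 scale (SE 0.12, adjusted p = 2.74e-06), just under 2-fold. It is 1.19 without WT library 2, which passes 2-fold, and 0.72 without WT library 1. It is 0.41 with TMM factors over all transcripts and 0.29 by DESeq2 with its own size factors. *rpl101* had 108428 and 114912 in *rrp6*Δ, against 106132 and 121037 in WT, with overlapping strains (−0.02). *rpl102* made up 17.0% and 17.0% of both copies in *rrp6*Δ, against 8.64% and 10.3% in WT. The coding sequences are 79.7% identical and share no stretch of 50 bases.

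**Figure D2:**
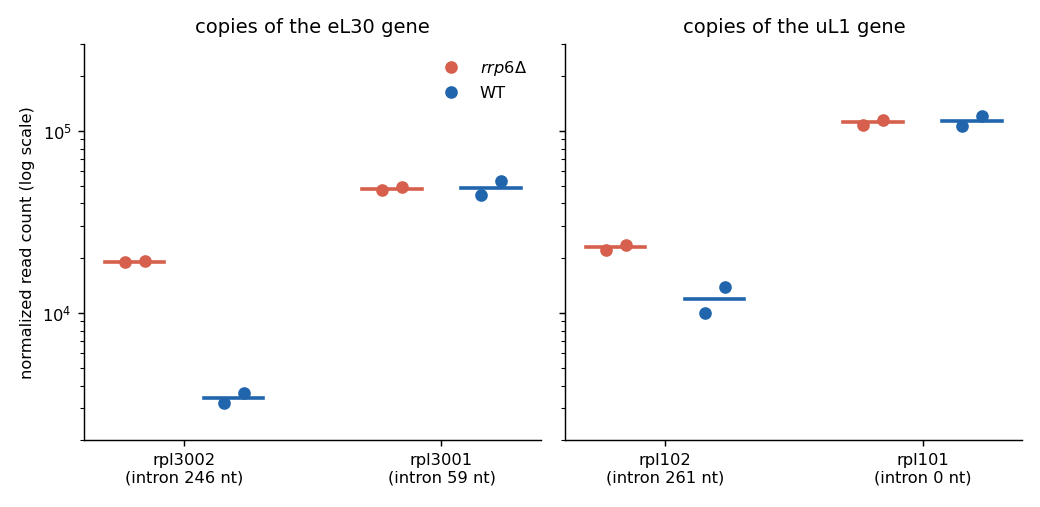
Normalized read count (log scale) of *rpl3002* and *rpl3001* (left) and of *rpl102* and *rpl101* (right) in each library, *rrp6*Δ in red and WT in blue, with bars at the means of 2 libraries. The *rrp6*Δ libraries lie above the WT libraries for *rpl3002* and *rpl102*, and the strains overlap for *rpl3001* and *rpl101*.

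The coding pieces of both genes rose together. The first piece of *rpl3002* had 16180 and 16213 normalized read counts in *rrp6*Δ, against 2859 and 3246 in WT, which is 5.31-fold, and the second piece was 5.37-fold higher. For *rpl102* the pieces were 1.77-fold and 1.83-fold higher. The sum of the pieces can exceed the count of the gene if a fragment that spans both pieces is counted in each. How such fragments were counted is not given. Unspliced fragments can also span both pieces, and reads outside the coding part lower the percentage, so it is no measure of splicing. For *rpl3002* this sum was 130% and 130% of the gene count in *rrp6*Δ, against 137% and 136% in WT, and for *rpl102* it was 115% and 115%, against 123% and 122%. Of the 57 ribosomal protein genes with 2 coding pieces, 50 had a lower percentage in *rrp6*Δ, with a median change of −1.80 points. The change was −6.53 points for *rpl3002* and −7.81 points for *rpl102*, and −14.7 points for *rpl1603*, whose entry is mostly non-coding. In the other 54 it ran between −5.96 and 2.58 points. Of 17 members with at least 200 nt of intron in the coding part, *rpl3002* and *rpl102* among them, 3 were higher (17.6%, against 7.63% of the 131) and 3 lower (17.6%, against 19.8%) by adjusted p alone, with a median log2 fold change of −0.02.

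By coding introns as a whole, 8 of 66 genes with one were higher and 8 lower by adjusted p alone (median −0.03). Of 65 genes without one 2 were higher and 18 lower (median −0.08). The background with the deposited factors was 46.7% higher and 7.08% lower. With TMM factors over all transcripts the counts were 2 and 63 with an intron, and 0 and 64 without. The background was then 9.05% higher and 59.4% lower. With quantile normalization they were 10 and 8 with an intron, and 7 and 13 without (background 15.8% higher and 31.1% lower). Coding length was not held equal between these groups. Among genes with an undivided coding sequence, *rps2202*, *rpl39*, *rpl3402* and *rpl6* had many reads that touch no coding base. The *rps2202* entry, for uS8, had 1906 and 1963 such reads (in normalized read counts) in *rrp6*Δ, against 1077 and 1209 in WT, while the whole gene was lower. For *rpl39*, one of the smallest proteins of the large subunit, they were 7113 and 7679 in *rrp6*Δ, against 3215 and 3705 in WT. They were 1908 and 2072 in *rrp6*Δ, against 1487 and 1661 in WT, for *rpl3402*. For *rpl6* they were 1893 and 1993 in *rrp6*Δ, against 1153 and 1205 in WT.

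Such reads outside the coding part rose about as often in ribosomal protein genes as in other genes. The comparison took 36 ribosomal protein genes with an undivided coding sequence and a mean of at least 50 of these reads. Both *rrp6*Δ libraries lay above both WT libraries in 25 of them (69.4%), and below in 0. Among 1922 other protein-coding genes the percentages were 70.9% above and 8.38% below. As log2 of *rrp6*Δ over WT, the 36 genes had medians of 0.67 outside and −0.08 inside the coding part, against 0.39 outside and 0.23 inside for the other genes. The largest ratios belonged to genes with few such reads, among them *rpl1001* and *rpl1002* (uL16, copies of nearly the same sequence), with log2 ratios of 2.37 and 2.26. In *rps601* (eS6) the reads were 683 and 791 in *rrp6*Δ, against 157 and 192 in WT, and made up 0.967% and 1.12% of the gene in *rrp6*Δ against 0.191% and 0.218% in WT. Overlap with transcripts of neighbours on the same strand was not tested.

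The other genes with the highest fold changes encode small proteins. *rpl4102*, a gene of the very short eL41, had 47001 and 54967 normalized read counts in *rrp6*Δ, against 29777 and 43441 in WT (limma 0.50, SE 0.13, adjusted p = 0.00287), with strains that did not overlap. *rpl39* had 77503 and 79908 in *rrp6*Δ, against 50541 and 63918 in WT (limma 0.47, SE 0.10, adjusted p = 0.000535). These calls rest on the scaling: with TMM factors over all transcripts the values are −0.04 for *rpl4102* and −0.07 for *rpl39*. The call of *rpl4102* is also lost by DESeq2 with the deposited factors (adjusted p = 0.134) and by limma with no filter (adjusted p = 0.0502). Without WT library 1 the values are 0.23 for *rpl4102* and 0.30 for *rpl39*, and without WT library 2 they are 0.77 and 0.64. The next were *rpl4101* (0.30), *rps3001* (0.29, eS30), *rps27* (0.26, eS27) and *rps2802* (0.24, eS28), which all passed by adjusted p alone with the deposited factors and had values between −0.30 and −0.25 with TMM factors over all transcripts.

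Coding length moved with the fold change among the 131 genes. Of 21 genes with up to 300 nt of coding sequence, 6 were higher and 0 lower by adjusted p alone (median 0.05), and of 34 genes with over 600 nt, 2 were higher and 14 lower (median −0.13). Among all protein-coding genes of up to 300 nt, 49.6% were higher and 6.19% lower, and of over 600 nt 47.2% and 7.3%. With library totals as the scaling the counts were 2 and 1 for the short ribosomal protein genes, and 1 and 17 for the long ones. With TMM factors over all transcripts they were 0 and 19 for the short genes, and 1 and 33 for the long ones (background 9.05% higher and 59.4% lower). The correlation of log2 coding length with log2 fold change across the 131 genes was −0.30 (Spearman −0.33), and −0.05 across the 5073 protein-coding genes. The same genes share libraries and depth, so this is a description. The WT libraries differed from each other along the same axis: WT library 2 over WT library 1 correlated with coding length at −0.54 across the 131 genes and −0.32 across all 5073. For *rrp6*Δ library 2 over *rrp6*Δ library 1 the correlation was −0.06 across the 131 genes and 0.27 across all 5073. The part of these differences between replicates in the fold changes was not tested.

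**Figure D3:**
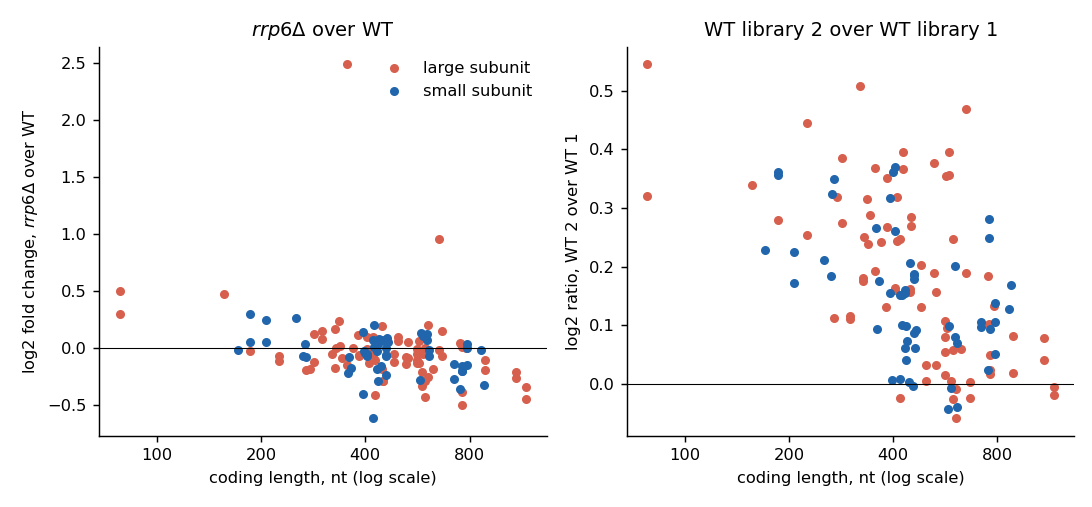
Coding length in nt (log scale, horizontal axis) of the 131 ribosomal protein genes against the log2 fold change of *rrp6*Δ over WT (left) and the log2 ratio of WT library 2 over WT library 1 (right), coloured by subunit. Short genes lie higher in both panels, with correlations of −0.30 on the left and −0.54 on the right.

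The lowest fold changes were found in both subunits. *rps1401*, for uS11, had 9558 and 9701 normalized read counts in *rrp6*Δ, against 14020 and 15575 in WT (limma −0.62, SE 0.10, adjusted p = 2.39e-05). *rpl802*, for uL2 near the peptidyl transferase centre, had 21905 and 23185 in *rrp6*Δ, against 31828 and 32219 in WT (limma −0.51, SE 0.09, adjusted p = 6.99e-05). *rpl302*, for uL3, had 23475 and 23784 in *rrp6*Δ, against 32588 and 32153 in WT (−0.45). For these 3 genes both *rrp6*Δ libraries lay below both WT libraries, and the calls by adjusted p alone held in every alternative that was run. The others of the 8 lowest were *rpl1603* (−0.44), *rpl2502* (−0.42, uL23 at the tunnel exit), *rps2202* (−0.41), *rpl801* (−0.39, uL2) and *rps3* (−0.36, uS3 at the mRNA entry).

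The 131 genes fall into 74 proteins by name, of which 51 have 2 copies, 3 have 3 copies and 20 have 1. The median log2 fold change was −0.06 for genes with another copy and −0.02 for single-copy genes. Over 60 pairs of copies the median difference in log2 fold change was 0.13, and 5 pairs differed by more than 0.5. In 57 of the 60 pairs the same copy had the higher count in all 4 libraries. The ratio of densities between copies in WT had a median of 1.72 and was over 4 in 8 pairs. The largest ratio, 54.8, was that of *rpl1602* to *rpl1603*.

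Copies of uS11 differed in which one fell. *rps1401* is given above, and *rps1402* had 78933 and 77871 normalized read counts in *rrp6*Δ, against 74799 and 75238 in WT, where the log2 fold change was 0.06 (adjusted p = 0.491 from limma). *rps1402* made up 89.2% and 88.9% of both copies in *rrp6*Δ, against 84.2% and 82.8% in WT. The coding sequences are 93.6% identical, and 14.0% of the 50-base stretches are shared, so part of the reads may be assigned with doubt.

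Copies of uS8 followed the same layout. *rps2202* had 9351 and 9177 normalized read counts in *rrp6*Δ, against 11012 and 13721 in WT. *rps2201*, at 0.13 on the log2 scale, made up 90.5% and 90.5% of both copies in *rrp6*Δ, against 87.3% and 86.05% in WT.

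Of the copies of uL2, *rpl803* had 34746 and 36898 normalized read counts in *rrp6*Δ, against 35032 and 36249 in WT, with a log2 fold change of 0.01. It made up 61.3% and 61.4% of the sum of *rpl803* and *rpl802* in *rrp6*Δ, against 52.4% and 52.9% in WT. For *rpl1502* and *rpl15*, both of eL15, the log2 fold changes were 0.20 and −0.26 and both passed by adjusted p alone. *rpl1502* made up 43.6% and 44.4% in *rrp6*Δ, against 35.9% and 36.7% in WT. The copies of uL13 were at −0.00 (*rpl1601*), −0.29 (*rpl1602*) and −0.44 (*rpl1603*).

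The remaining pairs of the 10 proteins with the largest difference were *rps902* (0.12) and *rps901* (−0.28) of uS4, *rpl2801* (0.19) and *rpl2802* (−0.19) of uL15, and *rpl35a* (0.16) and *rpl35b* (−0.18) of eL33. Of these, *rps901* passed by adjusted p alone. The share of a copy did not overlap between the strains in 43 of the 60 pairs. No such count was made for pairs of other genes. For the levels of single protein-coding genes, the strains did not overlap in 65.3% (*rrp6*Δ above) and 12% (*rrp6*Δ below). The count of pairs is thus no trait of ribosomal protein copies. With 4 libraries, a permutation test of a single share cannot go below p = 0.333. Copies that share many 50-base stretches are uncertain in their values, and the shared part is, for example, 97.1% for *rpl1201* and *rpl1202*, 71.5% for *rpl301* and *rpl302*, and 47.6% for *rpl1001* and *rpl1002*.

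**Figure D4:**
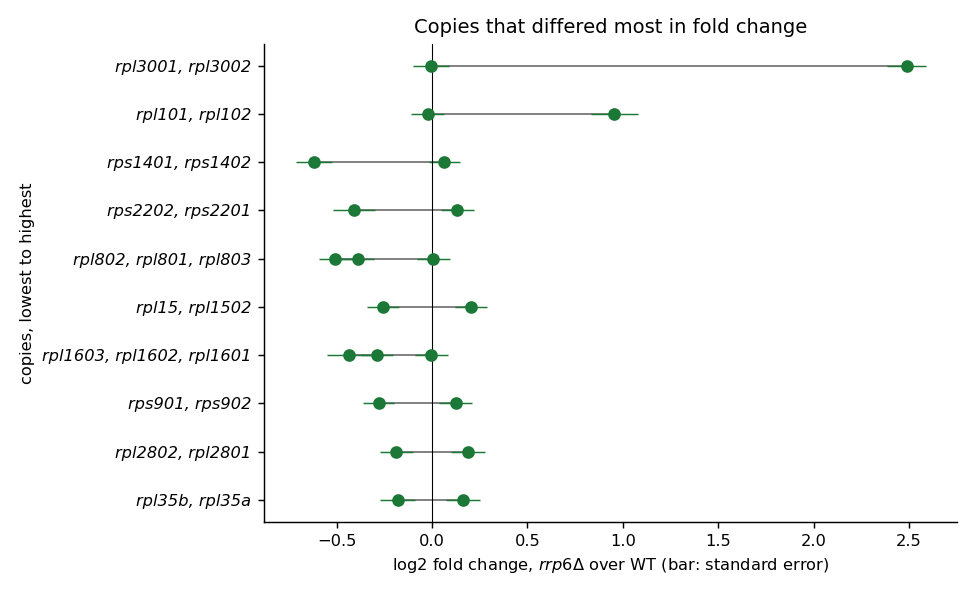
Log2 fold change of *rrp6*Δ over WT (horizontal axis, bars for the standard error) of the copies of the 10 proteins whose copies differed most, 1 protein per row with its copies named from lowest to highest. The distance is 2.49 for *rpl3001* and *rpl3002* and 0.98 for *rpl101* and *rpl102*, and 0.34 for *rpl35b* and *rpl35a* in the lowest row.

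Many of the 131 genes share a promoter element. HomolD (CAGTCACA on either strand) takes the place of a TATA box at ribosomal protein genes of *S. pombe*, and HomolE (ACCCTACCC on either strand) often lies upstream of it. In windows of 300 bases from 250 before to 50 after the RefSeq start, HomolD stood in 84 of the 131 genes (64.1%) and in 2.68% of 5112 windows of all protein-coding genes. HomolE stood in 40 (30.5%) and in 1.31%. Both were present in 23 members and neither in 30. The first HomolD had a median position of −51 relative to the start, and in 81 genes it lay between 30 and 80 bases before it. Neither string of letters contains the other.

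Windows of 60 bases that end at the element nearest the start are shown for some of the copies that parted. The copies in these pairs do not carry the same elements. They are from RefSeq (ASM294v3), 5′ to 3′ on the coding strand, with HomolD and HomolE in capitals, and the window of *rpl101* reaches 3 bases into the entry of the table.
rpl3002, chrI:5095927-5095986, minus strand: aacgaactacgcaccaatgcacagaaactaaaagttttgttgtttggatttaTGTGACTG
rpl3001, chrI:1974124-1974183, minus strand: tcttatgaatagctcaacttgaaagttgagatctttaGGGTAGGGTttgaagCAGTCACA
rpl102, chrII:3060440-3060499, plus strand: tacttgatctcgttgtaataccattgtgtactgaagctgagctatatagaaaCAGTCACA
rpl101, chrIII:612628-612687, minus strand: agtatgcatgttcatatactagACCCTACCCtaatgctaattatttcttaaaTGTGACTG
rps1401, chrI:3436125-3436184, plus strand: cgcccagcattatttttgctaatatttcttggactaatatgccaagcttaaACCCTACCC
rps1402, chrII:1792252-1792311, plus strand: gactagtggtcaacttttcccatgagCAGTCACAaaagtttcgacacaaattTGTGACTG

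*rpl3001* and *rpl101* carry both elements, and *rpl3002* and *rpl102*, the copies that rose, carry HomolD alone. *rps1401*, which was lower, has HomolE in the window and no HomolD, while *rps1402* has HomolD on each strand. Over all 131 genes, the median log2 fold change was −0.05 with and −0.08 without HomolD, and −0.10 with and −0.04 without HomolE. Of the 40 genes with HomolE, 0 were higher and 9 lower (22.5%) by adjusted p alone. Of the 91 without it 10 were higher (11%) and 17 lower (18.7%). The shares over all 131 genes were 7.63% higher and 19.8% lower, and over all protein-coding genes 46.7% and 7.08%. These counts depend on the scaling: with TMM factors over all transcripts, 40 of the 40 and 87 of the 91 were lower (background 59.4%). No cause of these differences was tested, and a window without these letters says nothing of the factor.

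Antisense transcripts could be compared for 22 of the 131 genes (16.8%), against 42.1% of the other protein-coding genes. These 22 overlap 23 entries on the opposite strand, namely 15 annotated ncRNAs and 8 cryptic unstable transcripts (CUTs), which the study defined from their rise in these libraries. The overlap covers at least 50% of the gene for 13 entries, and at most 32 nt for 6. The 22 genes with an antisense entry had a median log2 fold change of −0.03 (SD 0.10 over the 4 pairings of libraries), and the 109 without one had −0.06 (SD 0.11). The difference between these medians was not tested. By adjusted p alone, 4 of the 22 were higher (18.2%) and 2 lower (9.09%). Of the 109, 6 were higher (5.5%) and 24 lower (22%). Over all protein-coding genes 46.7% were higher and 7.08% lower. These counts depend on the scaling: with TMM factors over all transcripts, 127 of the 131 genes were lower (background 59.4%). The medians were 0.02 for the 8 genes with an antisense CUT and −0.03 for the 15 with an annotated ncRNA.

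The antisense entries themselves often rose. Of 14 annotated ncRNAs tested, 5 rose by adjusted p and 2-fold (background 49.5% of annotated ncRNAs) and 1 fell (background 0.714%). All 8 CUTs rose, as 99.9% of CUTs did by their definition. Most entries were small beside their gene. The antisense read count was a median 0.254% of that of the gene in *rrp6*Δ and 0.126% in WT.

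*rpl2702-antisense-1*, which spans the whole of *rpl2702* (eL27), showed a large rise. It had 445 and 479 normalized read counts in *rrp6*Δ, against 14.1 and 19.7 in WT (limma 4.73, SE 0.23, adjusted p = 3.81e-11). *rpl2702* itself had 28521 and 27963 in *rrp6*Δ, against 26622 and 31513 in WT, and the strains overlapped (−0.04, adjusted p = 0.743 from limma).

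*SPNCRNA.141*, opposite 40.9% of *rps101* (eS1), had 784 and 764 normalized read counts in *rrp6*Δ, against 70.7 and 91.8 in WT. The whole entry lies within *gpi7* on the same strand, so its reads are shared with that gene. *rps101* was at −0.16 (adjusted p = 0.132 from limma). CUT294, opposite 93.8% of *rpl3801* (eL38), had 290 and 272 in *rrp6*Δ, against 71.6 and 88.2 in WT, and *rpl3801* was at −0.07. Of CUT294, 848 of 2042 nt overlap the coding gene *SPBC577.03c* on its own strand, so reads are shared.

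The entries with the highest counts did not rise. The ncRNA opposite *rps20* (uS10), named *rpl20-antisense-1* in the table, had 28804 and 23843 normalized read counts in *rrp6*Δ, against 31704 and 29618 in WT (−0.23, adjusted p = 0.0513 from limma). It overlaps the neighbouring *rps2* gene on its own strand. *rps20* was at −0.23 (adjusted p = 0.0389). *rpl902-antisense-1*, which overlaps *rpl35* on its own strand, had 5871 and 4152 in *rrp6*Δ, against 5976 and 4297 in WT, and spans *rpl902* (uL6), whose own value was 0.06. *SPNCRNA.1015*, opposite *rps1102* (uS17), was the one that fell, with 115 and 122 in *rrp6*Δ, against 234 and 285 in WT (−1.12), and *rps1102* was at −0.06.

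Several other entries touch only an end of the gene. CUT2055 reaches 8 nt into *rpl3802* (eL38), with 2574 and 2788 normalized read counts in *rrp6*Δ, against 28.3 and 49.5 in WT, and *rpl3802* was at −0.12. CUT2174 reaches 16 nt into *rps7* (3.08, gene 0.10), and CUT1182 and *SPNCRNA.1034* reach 14 and 19 nt into *rps3001* with the same reads (1.503, gene 0.29). *SPNCRNA.1464* covers 13.4% of *rps1402* (0.83, gene 0.06), while *rps2601-antisense-1* covers the whole of *rps2601* (eS26; 0.60, gene −0.18). CUT2464, at *rpl3002*, reaches 32 nt into the gene and had 27.1 and 16 in *rrp6*Δ, against 6.19 and 3.64 in WT. *rpl102-antisense-1* covers 76.1% of *rpl102* and had 20.5 and 25 in *rrp6*Δ, against 13.3 and 20.4 in WT, which was no call (adjusted p = 0.263 from limma).

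Where an antisense entry rose by adjusted p and 2-fold and covers at least 30% of the gene, which holds for 8 genes, the gene had log2 fold changes between −0.42 (*rpl2502*) and 0.19 (*rpl2801*), with a median of −0.05. Of these 8 genes, 7 were within 0.2 of 0. No such count was made for all 131 genes, so it does not set these 8 apart from the rest. The median over all 131 was −0.06. In *rrp6*Δ these antisense read counts ran between 0.0679% (CUT669, at *rpl3201*) and 1.64% (*rpl2702-antisense-1*) of those of their genes. An effect of the entries on the genes was not tested. The median standard error of a log2 fold change over the 131 genes was 0.09.

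**Figure D5:**
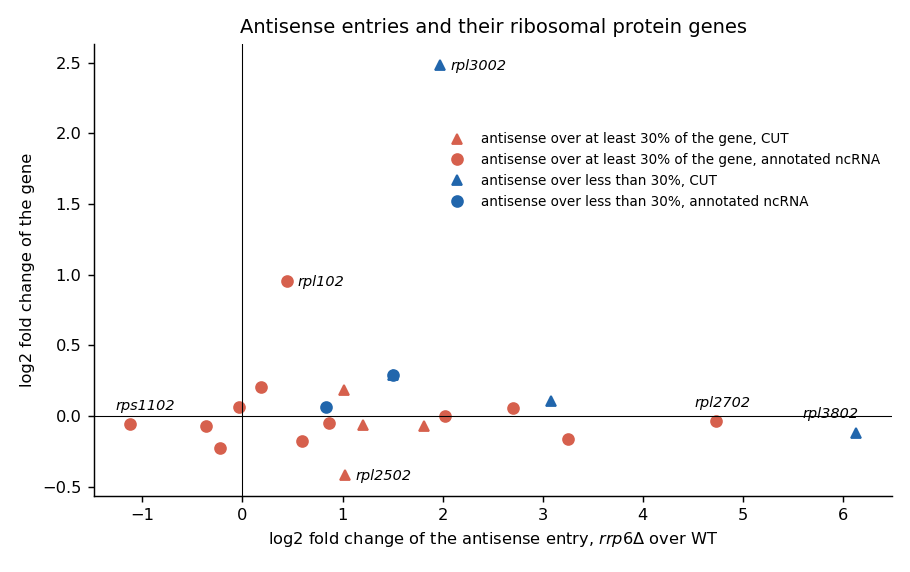
Log2 fold change of *rrp6*Δ over WT of the tested antisense entries (horizontal axis) against that of the ribosomal protein gene opposite (vertical axis), with triangles for CUTs, circles for annotated ncRNAs, and red where the entry covers at least 30% of the gene. Antisense values run between −1.12 (*rps1102*) and 6.13 (*rpl3802*), while the genes other than *rpl3002* and *rpl102* lie between −0.42 and 0.29.

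Entries on the opposite strand also lie upstream of the genes. Of the 131 genes, 33 (25.2%) have such a CUT or annotated ncRNA that starts within 300 nt before the gene and runs away from it without overlap. The share is 17.6% for the other protein-coding genes. All 30 CUTs there rose by adjusted p and 2-fold, but CUTs were defined by such a rise in these libraries (background 99.9%), so this count tests nothing. Of 7 annotated ncRNAs there, 4 rose (background 49.5%). Over the entries that rose, most of them CUTs, the median was 3.40 on the log2 scale. CUT2373 and *mrc1-antisense-1*, both before *rps2502*, may share reads, with 856.5 and 943 against 855.7 and 940 normalized read counts in *rrp6*Δ. The 31 genes next to entries that rose had a median of −0.07. CUT517, 64 nt before *rpl102*, had 1071 and 1061 normalized read counts in *rrp6*Δ, against 83.1 and 101 in WT. CUT668, 57 nt before *rpl3201* (eL32), had 2202 and 2463 in *rrp6*Δ, against 53.9 and 76.5 in WT, and *rpl3201* was at −0.06. *SPNCRNA.173*, 51 nt before *rps2202*, had 354 and 391 in *rrp6*Δ, against 30.05 and 31.3 in WT, while *rps2202* was at −0.41. Without *rpl102*, the genes next to these entries lay at 0.20 or below. CUT668, *SPNCRNA.173*, CUT2373 and *mrc1-antisense-1* were picked out after their values were seen.

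Other genes of translation moved in part. The acidic P proteins form the lateral stalk that recruits elongation factors. Of 7 of their genes, by adjusted p alone, 1 was higher (14.3%, background 46.7%) and 3 were lower (42.9%, background 7.08%), with a median of −0.18. *rpp202* had 64700 and 66475 normalized read counts in *rrp6*Δ, against 44576 and 51322 in WT (0.46, adjusted p = 0.000251 from limma), while *rpp203* was at −0.52, *rpp103* at −0.42 and *rpp102* at −0.28. Of 7 genes of translation elongation factors 5 were lower (71.4%, background 7.08%) and 0 higher (background 46.7%), with a median of −0.21. Among the lower were *tef101* of eEF1A (−0.44), *tef3* of eEF3 (−0.36), and *eft201* (−0.26) and *eft202* (−0.20) of eEF2.

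The 54 genes of mitochondrial ribosomal proteins had a median of 0.24, against 0.26 for all protein-coding genes. By adjusted p alone 21 were higher (38.9%, background 46.7%) and 2 lower (3.7%, background 7.08%). With TMM factors over all transcripts the median turns to −0.31, with 0 higher (background 9.05%) and 34 lower (background 59.4%). *mrpl20* (0.59), *mrps16* (0.58), *rsm10* (0.53) and *mrpl1* (0.60) were higher, and *mrp10* (−0.45) and *mrp11* (−0.31) lower. Of the list of transcription and growth control genes, 9 were found by name. The kinase gene *sck1* (0.34) was higher by adjusted p alone (11.1% of the list, background 46.7%), and 8 did not pass. The median of 0.16 also turns below 0 with TMM factors (−0.38 over all transcripts).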

How the data were processed

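Total RNA-seq libraries of *rrp6*Δ and WT cells, 2 of each, were taken from 1 table of the whole series, and strain and replicate came from the labels. The authors deposited a normalized read count and a density (signal values) per entry, and for *rrp6*Δ library 2, whose factor is 1, the deposited values are counts as they stand. By the methods, TopHat 2.0.6 placed the reads, allowing 3 mismatches, and densities were normalized on ERCC spike-in signals. The read counter, annotation release and handling of reads that map to several places are not given in the sources used here. Each library's values are whole reads multiplied by 1 factor (0.820 and 1 for *rrp6*Δ, 0.884 and 0.729 for WT), which held for 100% of the values (tolerance 1e-06). The table has 21852 entries, of which 10204 are coding pieces and 28 repeat a pseudogene, leaving 11620 transcripts. Read at the table's coordinates in ASM294v3, 5115 of 5118 coding sequences (99.9%) began with ATG.

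The test was limma 3.58.1 with a trend (R 4.3.3) on log2(normalized read count + 0.729), after filterByExpr of edgeR 4.0.16 (minimum count 10), with Benjamini-Hochberg adjustment over 11227 transcripts. A fold change is on this log2 scale. DESeq2 1.42.0, edgeR's quasi-likelihood test, other scalings, filters, pseudocounts, a replicate block and each library left out in turn were alternatives. Antisense means any overlap on the opposite strand. Calls by adjusted p and 2-fold were tried on simulated counts for this comparison (11227 transcripts). Of transcripts raised 4-fold 50 of 50 were called, of those raised 2.5-fold 47 of 50. Of those raised 1.5-fold 0 of 50 were called (25 by adjusted p alone). Falls were called less often, with 40 of 50 at 0.4-fold (43 by adjusted p alone). Chi-square per degree of freedom between replicates was 28.6 for *rrp6*Δ and 111 for WT, above the 1 of sampling noise. The p-values of limma rest on the spread between 2 libraries per strain. That spread is drawn toward a trend over all transcripts tested, so it is not that of each gene alone. Summaries used biopython 1.88, matplotlib 3.10.9, scipy 1.17.1, numpy 2.4.6 and pandas 2.3.3 under Python 3.11.15.

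The members and lists were chosen with earlier results of these data known. Named were members called at adjusted p and 2-fold, the 8 highest and 8 lowest fold changes, copies of the 10 proteins with the largest difference, the 10 members with the most abundant antisense entries, density extremes of each subunit, *rpl3002* with its copy, and called members of other lists (at most 4 per list and direction). Others were named after their values were seen.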

Additional observations from a re-analysis of the deposited data

How the results depend on the processing

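*rpl3002* kept its call under all alternatives (log2 fold change 1.83 with the size factors of DESeq2 to 2.58 without WT library 2). Counts by adjusted p alone depend on the scaling. Set against the deposited factors, the median over all transcripts shifted on the log2 scale by −0.54 for TMM on all transcripts, −0.25 for TMM on protein-coding genes, −0.72 for quantile normalization and −0.66 for the size factors of DESeq2. In this order 2, 2, 17 and 2 ribosomal protein genes were higher (4 with library totals, 5 with no filter), and 127, 88, 21 and 127 lower. Of all protein-coding genes, 9.05%, 23.6%, 15.8% and 6.35% were then higher, and 59.4%, 22.7%, 31.1% and 71.1% lower. By adjusted p and 2-fold, 2 were lower for TMM on all transcripts and 9 for DESeq2. The median of the 131 genes was −0.60 for TMM on all transcripts, −0.30 for TMM on protein-coding genes and −0.72 for DESeq2. In the same order it was −0.57, −0.28 and −0.69 for genes with an antisense entry, and −0.60, −0.31 and −0.72 for those without. *rpl39* and *rpl4102* turned to −0.073 and −0.043 for TMM on all transcripts and to −0.19 and −0.17 for DESeq2. The annotated antisense ncRNAs that rose numbered 2 after quantile normalization, and 3 when at least 50% of the gene had to be covered, where fewer were tested. Leaving out each library in turn gave 4 to 16 higher and 15 to 46 lower by adjusted p alone, 1 to 2 higher by adjusted p and 2-fold, and a median of −0.086 to 0.090 for genes with an antisense entry. The fewest lower (15) and most higher (16) came without WT library 2, and the most lower (46) without WT library 1. The cause was not tested. Nothing in the labels pairs the libraries by replicate number, and the correlation of deviations between same-numbered libraries was 0.01 over all transcripts and 0.30 over the 131 genes. With a replicate block, 10 ribosomal protein genes were higher and 22 lower. Without *rpl3002* and *rpl102*, a choice made after seeing the data, the median of the other 129 was −0.06.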
